A study of Mus musculus with 5 samples.

Results

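The genes of the E proteins (Tcf3, Tcf4 and Tcf12) and of the Id proteins (Id1, Id2, Id3 and Id4) are 7 of the 21779 protein-coding genes to which ChIP-seq peaks of ZFP541 were related. They were chosen by family membership and by peak values of the same libraries, since the intergenic peak close to Tcf12 was already known to be among the strongest. All peaks that overlapped a gene body or the 50 kb on either side of it were taken. ZFP541 is a nuclear protein with zinc fingers that male germ cells make. Its sites were mapped by sequencing the DNA that a rabbit antibody against an N-terminal stretch of it brought down from cross-linked chromatin. The cells were spermatocytes of the pachytene and diplotene stages of meiotic prophase, enriched by STA-PUT sedimentation from testes of adult C57BL/6 mice. Peak lists were used from 2 wild-type libraries (replicates 1 and 2) and 1 library of Zfp541-/- cells made with the same antibody. The labels do not say which part of Zfp541 the knockout allele lacks, nor whether each library came from 1 animal or from several, so differences between the replicates may be technical. The wild-type input libraries were not analysed here.

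E proteins are transcription factors of the basic helix-loop-helix (bHLH) family. They bind DNA as dimers, often with a tissue-specific bHLH partner, at a short palindrome called the E-box. Id proteins have the helix-loop-helix part that forms dimers but lack the basic part that touches DNA, so they take E proteins away from it. Id genes are well-known targets of BMP signalling. In the testis, Id4 is a marker of the spermatogonia with stem cell activity.

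To show what lies under the peaks at the starts of these genes, the 250 bases upstream of listed starts are given 5′ to 3′ (RefSeq, GRCm38.p6, the assembly of mm10). The table used held starts of 5 of the 7 genes (Tcf3, Tcf12, Id2, Id3 and Id4). The sequences of Tcf12, Tcf3 and Id4 that come first lay entirely under a peak in both wild-type replicates. In the Id2 sequence 185 bases lay under a peak of replicate 2 only. No peak covered the Id3 sequence or the last one, which precedes a start far inside Tcf12. Capitals mark the GC box, GGGCGG on either strand, the element that SP1-type zinc finger factors bind in CG-rich promoters.
Tcf12 (chr9:72111820-72112069, minus strand): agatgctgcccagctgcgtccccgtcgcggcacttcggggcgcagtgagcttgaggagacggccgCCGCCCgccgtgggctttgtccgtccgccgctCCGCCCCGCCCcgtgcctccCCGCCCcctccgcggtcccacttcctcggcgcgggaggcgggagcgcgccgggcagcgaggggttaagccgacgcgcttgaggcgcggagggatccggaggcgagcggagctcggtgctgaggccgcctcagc
Tcf3 (chr10:80433636-80433885, minus strand): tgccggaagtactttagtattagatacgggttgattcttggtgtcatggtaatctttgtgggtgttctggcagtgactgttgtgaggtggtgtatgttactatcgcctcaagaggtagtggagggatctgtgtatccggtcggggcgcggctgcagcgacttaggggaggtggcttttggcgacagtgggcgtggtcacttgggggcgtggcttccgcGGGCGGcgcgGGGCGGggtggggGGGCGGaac
Id4 (chr13:48260866-48261115, plus strand): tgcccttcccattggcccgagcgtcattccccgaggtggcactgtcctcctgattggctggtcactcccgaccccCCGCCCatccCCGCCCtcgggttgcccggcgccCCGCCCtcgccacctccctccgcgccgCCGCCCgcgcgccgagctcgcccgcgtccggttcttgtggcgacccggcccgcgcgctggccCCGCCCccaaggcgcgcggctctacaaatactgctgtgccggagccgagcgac
Id2 (chr12:25096093-25096342, minus strand): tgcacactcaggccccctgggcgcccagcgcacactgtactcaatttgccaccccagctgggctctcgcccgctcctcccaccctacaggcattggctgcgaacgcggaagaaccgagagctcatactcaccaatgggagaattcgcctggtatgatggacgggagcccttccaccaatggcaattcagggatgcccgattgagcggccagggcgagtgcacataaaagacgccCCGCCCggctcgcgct
Id3 (chr4:136143572-136143821, plus strand): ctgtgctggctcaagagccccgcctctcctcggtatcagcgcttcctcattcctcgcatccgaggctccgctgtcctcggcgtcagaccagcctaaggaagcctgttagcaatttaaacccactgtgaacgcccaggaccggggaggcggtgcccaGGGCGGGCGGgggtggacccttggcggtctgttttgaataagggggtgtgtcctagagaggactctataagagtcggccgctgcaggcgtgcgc
Tcf12 (chr9:71896097-71896346, minus strand): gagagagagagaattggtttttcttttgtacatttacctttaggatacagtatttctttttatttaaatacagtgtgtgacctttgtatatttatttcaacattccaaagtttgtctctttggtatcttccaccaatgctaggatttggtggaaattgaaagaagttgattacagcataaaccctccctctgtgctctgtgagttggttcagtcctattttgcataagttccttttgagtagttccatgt

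ZFP541 peaks were found near all 7 genes in at least 1 wild-type library, and near 6 of them in the same place in both. The genes differed widely in strength and position, from a very strong pair of peaks at Tcf12 to no peak within 49 kb of Id1. In all, 22 peaks of replicate 1, 23 of replicate 2 and none of the knockout lay near the 7 genes. The strength of a peak is given as its fold enrichment, the ratio over the background that the authors' peak caller estimated, and its confidence as −log10 q, for which a q-value of 0.05 is the usual limit. Overlapping peaks of the wild-type replicates (at least 1 bp) were joined into 5325 shared regions in the whole genome, after 132 with a knockout peak had been left out. Of these regions, 12 lay near the 7 genes.

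Tcf3, Tcf4, Tcf12, Id2, Id3 and Id4 had a shared region in the gene body or within 50 kb of it (6 of 7), where 45.8% of all protein-coding genes had one. Among genes under 10 kb in length, as the 4 Id genes are, the share was 37.5%, and among genes of 200 kb or longer, as Tcf4 and Tcf12 are, it was 43.6%. A shared region within 1 kb of either end of the gene was found at Tcf3, Tcf12 and Id4 (3 of 7, made up of 2 of 3 E protein genes and 1 of 4 Id genes), against 21.0% of all protein-coding genes. That share was 13.4% among genes under 10 kb and 26.7% among genes of 200 kb or longer. The members were chosen with these peaks known, so neither count was tested. For 8 of the 12 regions the nearest protein-coding gene was the member itself, and for 4 it was another gene. Those 4 were at Mex3d and Mbd3 (near Tcf3) and at E2f2 (near Id3).

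**Figure D1:**
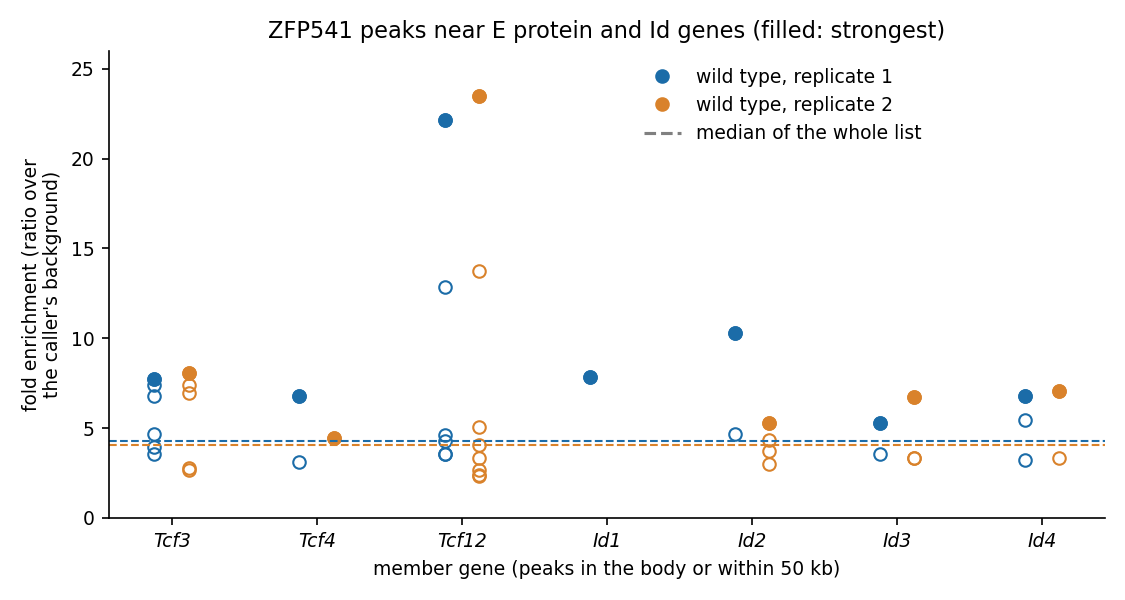
Fold enrichment (y axis, ratio over the caller's background) of every peak in the body or within 50 kb of each gene (x axis), for wild-type replicates 1 (blue) and 2 (orange). Filled points are the strongest peak in that window for each gene and replicate, and dashed lines the median of each whole list (4.29 and 4.03). For Id1, Id3 and, in replicate 2, Tcf3, the filled point is a peak that lies nearer to another gene. The strongest peaks are near Tcf12, at 22.1 and 23.5, and Id1 has a point in replicate 1 only.

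**Figure D2:**
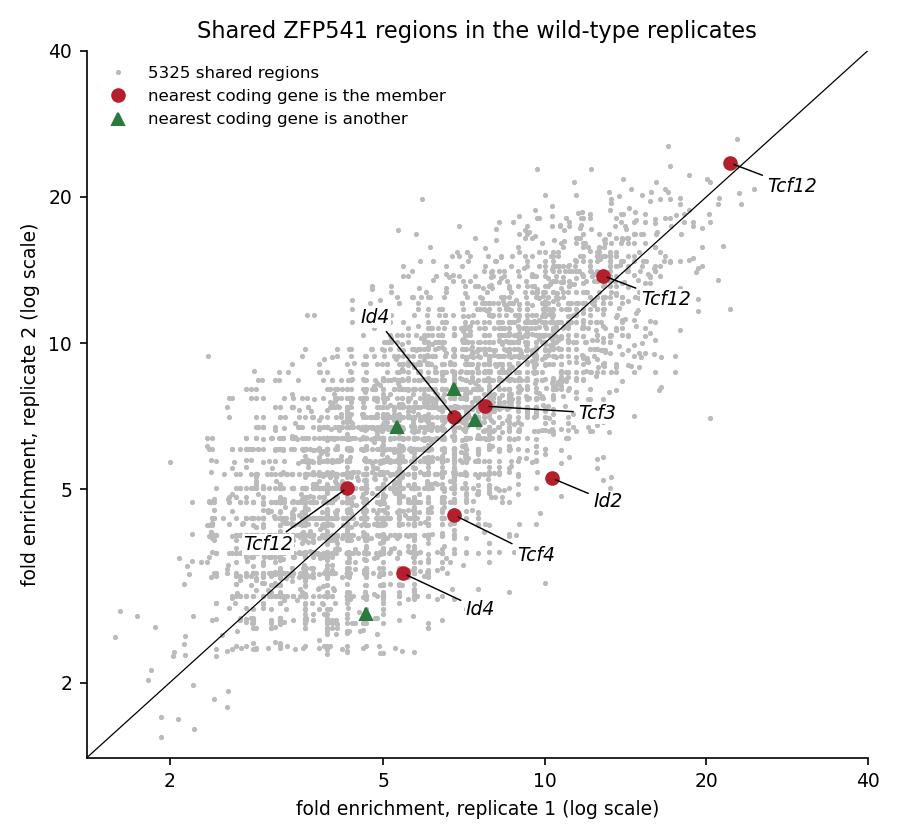
Highest fold enrichment of each shared region in replicate 1 (x axis) and replicate 2 (y axis), both on log scales, for all 5325 regions (grey) and the 12 near the 7 genes (red circles where the member is the nearest coding gene, with its name, green triangles where another gene is). The line marks equal values. Tcf12 regions lie close to the line, and the Id2 region, at 10.3 and 5.28, lies well below it.

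Tcf12 encodes HEB, the E protein that pairs with TCF3 in lymphocytes, and it stood apart among the 7 genes by the strength of its peaks. The gene lies at chr9:71844252-72111893 on the minus strand, so its 5′ end is the higher coordinate. An intergenic region upstream of that end, at chr9:72131384-72134816, had a fold enrichment of 22.1 in replicate 1 and 23.5 in replicate 2, with −log10 q of 65.4 and 75.1. These values were the 7th highest of 8236 peaks and the 3rd highest of 10371 peaks, and by mean percentile the region ranked 3rd of 5325. The summits of the replicates, the points of highest signal, were 13 bp apart, against a median gap of 90 bp over all shared regions. The region was 3433 bp wide, against a median of 1061 bp, and held 2 peaks of each replicate.

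The summit of the intergenic region was 21436 bp from the 5′ end of Tcf12, with no gene of any type over it. The nearest gene end of any kind, 3893 bp away, was that of the pseudogene Gm7863. Of 375 shared regions with a summit outside protein-coding genes and over 1 kb from their ends, it had the 2nd highest fold in replicate 1 and the highest in replicate 2. The medians of those 375 were 4.29 and 4.36. The shared regions closest to it in fold, by the sum of the absolute log2 differences in the 2 replicates, were at Pds5b (22.9 and 23.2, log2 distance 0.067), at Hmga1 (22.8 and 26.3, 0.20) and inside Casz1 (20.4 and 21.5, 0.25). This likeness is of strength alone.

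Tcf12 had a further strong region at its own 5′ end. It covered chr9:72110656-72112842, with folds of 12.9 and 13.8 and −log10 q of 28.6 and 33.7, at percentiles 96.8 and 97.2 of the lists. Starts at 72111819 and 72111201 both lay under it, and the sequence printed for the outer start was wholly covered. A narrow region of 313 bp inside the gene, 1561 bp from the end, had folds of 4.29 and 5.04. The internal start at 71896096 had no peak in any library, and the nearest peak to it, at chr9:71971621-71971815, was a weak peak of replicate 2 (fold 2.69, −log10 q 0.31).

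**Figure D3:**
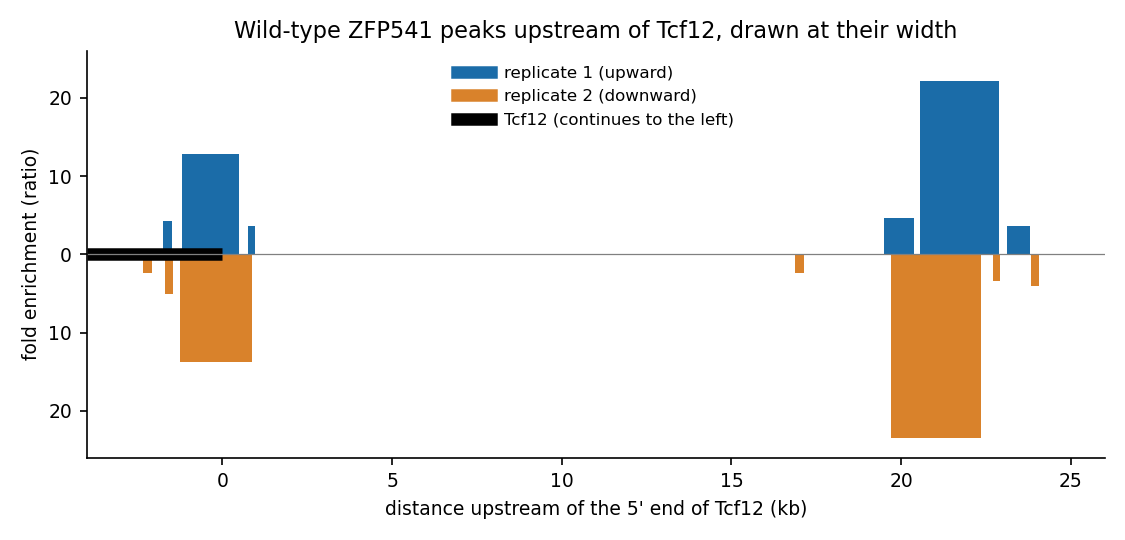
Fold enrichment (y axis, ratio) of wild-type peaks against distance upstream of the 5′ end of Tcf12 (x axis, kb), each bar as wide as its peak, with replicate 1 upward (blue), replicate 2 downward (orange) and the gene as a black bar. Both replicates have a strong peak at the end of the gene (12.9 and 13.8) and a stronger one about 21 kb upstream (22.1 and 23.5), with weaker peaks beside them.

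Tcf3 encodes E2A (the E12 and E47 proteins). It had a shared region at its 5′ end, and its other shared regions lay nearer to neighbouring genes. The gene lies at chr10:80409541-80433976 on the minus strand. The region at its 5′ end, chr10:80432951-80433971, had folds of 7.73 and 7.42 with −log10 q of 16.8 and 14.5, at percentiles 83.9 and 83.1 of the lists. Replicate 2 had 0.960 times the fold of replicate 1. Inside the gene, replicate 1 alone had a weak peak (3.57) 1919 bp from the end. On the far side of Tcf3, a region at the end of Mbd3, which encodes a subunit of the NuRD deacetylase complex, had 7.40 and 6.94. A weaker region inside Mbd3 had 4.64 and 2.77, with a −log10 q of 0.70 in replicate 2, and was likewise lost when 5 or more was required. A region at the end of Mex3d, an RNA-binding protein gene, had 6.79 and 8.06. The Tcf3 neighbourhood is dense in genes, and its 3 regions away from Tcf3 had summits 10662 to 22414 bp from it.

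Tcf4 encodes E2-2, the E protein best known from the nervous system and plasmacytoid dendritic cells. It had 1 shared region in a body of 344539 bp. That region, chr18:69346181-69346636, was narrow (456 bp) and lay 3059 bp inside the lower-coordinate end of the gene (chr18:69343429-69687967). Its fold was 6.79 in replicate 1 and 4.42 in replicate 2, with −log10 q of 9.32 and 3.99, so it was lost when a −log10 q of 5 or more was asked of each peak. Replicate 1 also had a weak peak (3.08, −log10 q 1.01) nearer to that end, with its summit 916 bp inside.

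Id4 was the only Id gene with a shared region over its own start. The gene lies at chr13:48261116-48266028 on the plus strand. The region, chr13:48260291-48262496, had folds of 6.78 and 7.05 and −log10 q of 10.5 and 10.7, at percentiles 78.0 and 80.8. The summits lay 224 bp and 397 bp inside Id4, where the long non-coding RNA gene A330033J07Rik also lies, so the peak cannot be assigned to either gene alone. A smaller region further inside Id4 had 5.45 and 3.36 and was lost with a −log10 q minimum of 5 and under a reciprocal overlap of 50%.

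Id2 had a broad region upstream of its start, not over it. The gene lies at chr12:25093799-25096092 on the minus strand, and the region covered chr12:25097806-25101232, 3427 bp that began 1714 bp upstream of the gene. It was as wide as 98.4% of all shared regions or wider. Here the replicates differed, with folds of 10.3 in replicate 1 and 5.28 in replicate 2. The −log10 q was 25.1 and 13.2, so the region was kept at a minimum of 10. The ratio of the fold in replicate 2 to that in replicate 1 was 0.513, and only 54 of the 5325 regions had a lower one. The summits were nevertheless 46 bp apart. At the start and just upstream of it replicate 2 had peaks of 4.36 and 3.69 (summits 221 bp and 1051 bp from the end of the gene), and replicate 1 had none.

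Id3 and Id1 had no peak at their own ends in any library. Near Id3 (chr4:136143822-136145392, plus strand) the shared region, chr4:136172429-136173405, lay at the end of E2f2, which encodes a cell cycle transcription factor, 27037 bp from Id3. Its folds were 5.30 and 6.71, and it was lost with a −log10 q minimum of 10. Between 7914 and 8957 bp upstream of Id3 the replicates had weak peaks that did not overlap each other (1 of fold 3.57 in replicate 1 and 2 of fold 3.36 in replicate 2). At Id1 (chr2:152736251-152737410) the only peak within the 50 kb was at chr2:152686801-152687054, 49197 bp away, in replicate 1 alone, with a fold of 7.86 and a −log10 q of 12.4. It lay inside H13 and 265 bp from Mcts2, an imprinted retrogene in an intron of H13. Beyond the 50 kb limit, replicate 2 had a peak of 4.03 at 66465 bp from Id1, at the end of H13. These 2 peaks are 17 kb apart and do not overlap. Overlapping peaks of both replicates lay only farther out, 93626 bp from Id1 and nearest to Bcl2l1 (folds of 3.87 and 6.00). They form the region that Id1 gains with a flank of 100 kb.

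**Figure D4:**
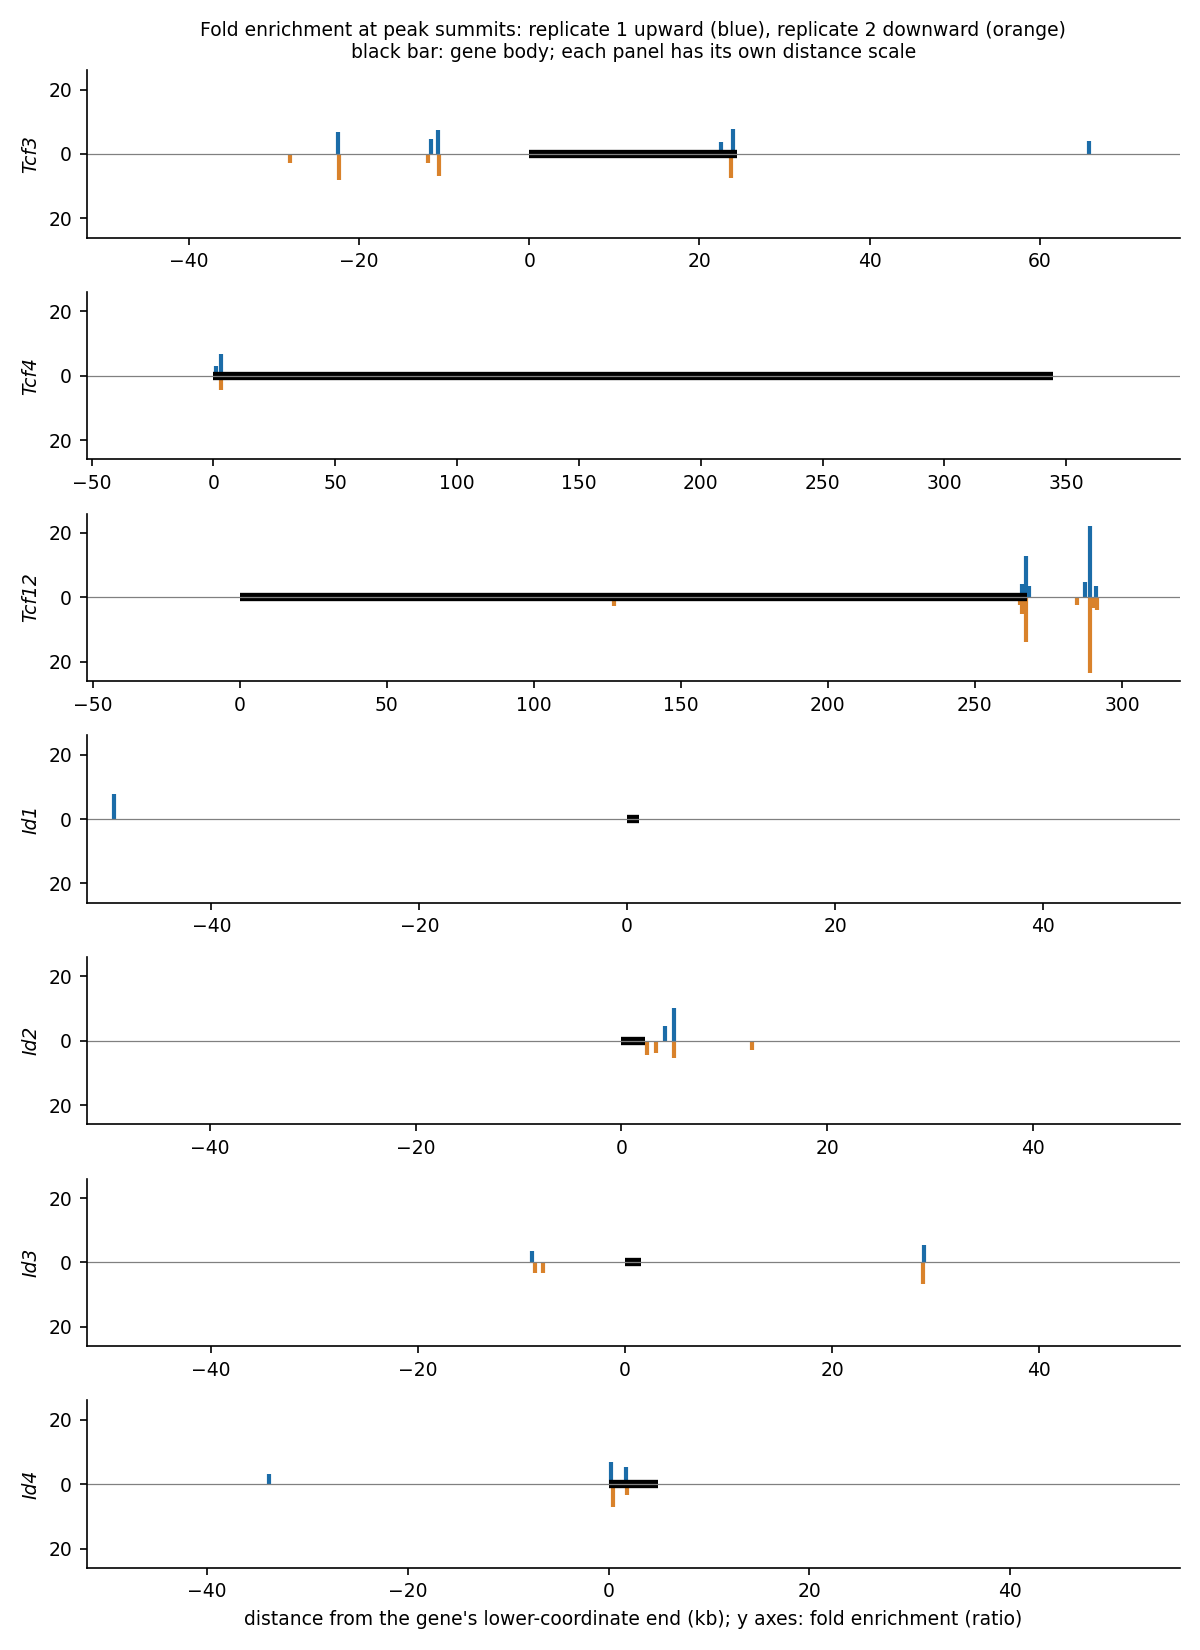
Fold enrichment (y axes, ratio) at the summits of all peaks in the body or within 50 kb of the 7 genes, against distance from the lower-coordinate end of each gene (x axes, kb), with replicate 1 upward (blue), replicate 2 downward (orange) and gene bodies in black. Distance scales differ between panels. Tcf12 and Id2 have their strongest peaks outside the gene on the side of the 5′ end, Tcf3 and Id4 have peaks over it, and Id1 has none nearby.

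No peak of the knockout list lay near any of the 7 genes, and no wild-type peak near them overlapped one. Over all protein-coding genes 0.776% had a knockout peak in the body or within 50 kb, so an absence at 7 genes is close to the background and says little about them. The nearest knockout peak was 357744 bp from Id1 and over 2 Mb from each of the others (2023907 bp for Id2). The knockout list held 256 peaks in all. Its lowest −log10 p was 4.47, against 2.71 and 2.54 in wild-type replicates 1 and 2, so weaker peaks entered the wild-type lists. With 1 knockout library and read depth unknown, no test between the genotypes was made.

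Peaks near these genes that both replicates shared had a higher median fold than those found in a single replicate, and the ranges overlapped. Of the 22 replicate 1 peaks, 15 overlapped a replicate 2 peak (68.2%, 95% exact binomial interval 45.1 to 86.1), and of the 23 replicate 2 peaks, 13 overlapped a replicate 1 peak (56.5%, 34.5 to 76.8). Over the whole lists these shares were 73.7% and 54.7%. Peaks found in both had a median fold of 6.78 in replicate 1 and 6.71 in replicate 2, and peaks found in a single replicate 3.57 and 3.19. Shared peaks ranged from 3.57 to 22.1 in replicate 1 and from 2.77 to 23.5 in replicate 2. Peaks without a counterpart ranged from 3.08 to 7.86, the peak near Id1, in replicate 1 and from 2.34 to 4.36, at the start of Id2, in replicate 2. A q-value above 0.05 was given for 2 of the replicate 1 peaks and 6 of the replicate 2 peaks. Weak peaks often carry the same value, such as the 3.57 that 618 peaks of replicate 1 share, so ranks among them are coarse.

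The promoters under shared regions had a higher median number of CG dinucleotides than the others. Those at the 5′ starts of Tcf12 and at Id4 lay above the median of promoters under shared regions, and that of Tcf3 lay below it. The sequences upstream of the 5′ starts of Tcf12 held 38 and 39 CG dinucleotides in 250 bases, and that of Id4 held 35. Those of Tcf3, Id2 and Id3 held 18 each, although only that of Tcf3 lay under a peak in both replicates. The internal start of Tcf12, with no peak, had none. Of 21263 promoters of protein-coding genes, 3982 overlapped a shared region and had a median of 24 CG dinucleotides, and the other 17281 had a median of 6.

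The GC box (GGGCGG or its reverse complement) was present in each printed sequence but that of the internal Tcf12 start. It occurred 5 times upstream of Id4, 4 times at the outer Tcf12 start, 3 times at Tcf3, 2 times at Id3 and 1 time at Id2. Of coding gene promoters under a shared region 74.4% held it, against 35.3% of the others and 42.6% of all 21263 coding gene promoters. The E-box (CANNTG, which reads the same on both strands and can share no more than an end base with the GC box) occurred 1 time each at the outer Tcf12 start, Tcf3 and Id2 and was not in the windows of Id3, Id4 and the internal Tcf12 start. It was in 66.2% of all promoters in the table, in 49.8% of those under a shared region and in 68.9% of the others. These matches describe the letters in the windows and were not tested against binding.

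**Figure D5:**
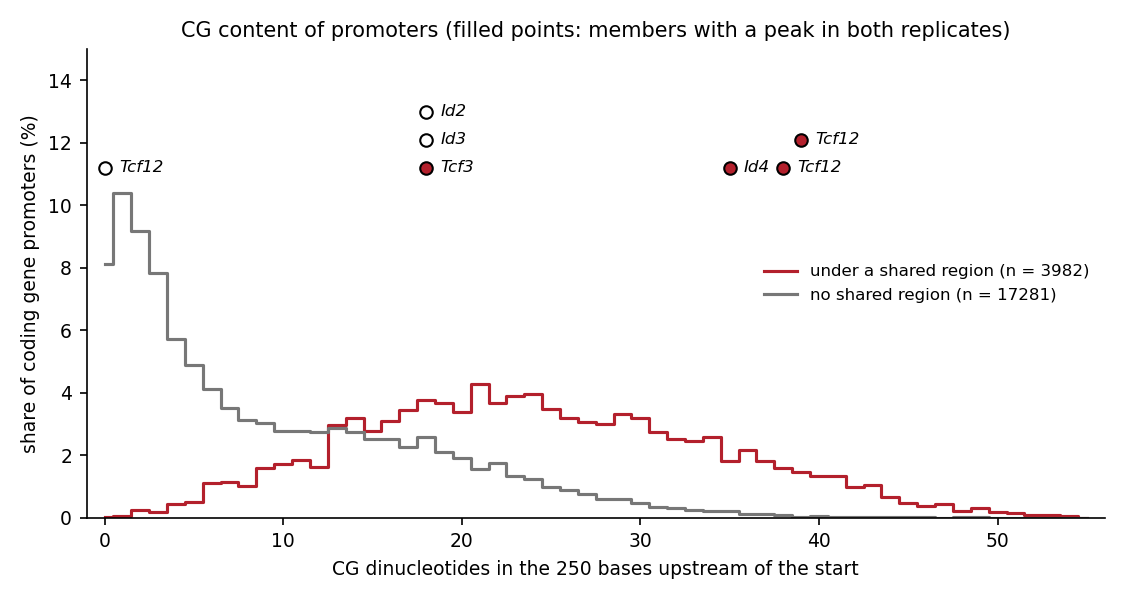
Share of coding gene promoters (y axis, %) by the number of CG dinucleotides in the 250 bases upstream of the start (x axis), for promoters under a shared region (red line, n = 3982) and without one (grey line, n = 17281). Points mark the listed starts of the members at their CG number, filled where both replicates had a peak; their height has no meaning. The filled points of Tcf12 and Id4 lie between 35 and 39 and that of Tcf3 at 18. The open point of Tcf12 at 0 is its internal start.

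Related gene families were described by the same rule, a shared region within 1 kb of a gene end, to be read against the 21.0% of all protein-coding genes. Of 45 tissue-specific bHLH partner genes, 12 (26.7%) had a region, led by Tcf15 (8.46 and 11.4), a factor of somite development, Atoh8 (8.21 and 11.1) and the retinal factor Atoh7 (5.56 and 10.1). In the body or within 50 kb, 14 of these partners (31.1%) had a region, below the 45.8% of all protein-coding genes. The other lists were above that share, from 66.7% to 81.8%. Of 6 bHLH genes of germ cells 2 had one. These were Bhmg1, which encodes MEIOSIN, a partner of STRA8 at meiotic entry (10.4 and 16.3), and Tcfl5, a spermatocyte factor, at low values (3.21 and 4.70).

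Repressors and zipper genes were described next. Of 12 genes of the Hes, Hey and Bhlhe repressors 7 (58.3%) had a region, led by Bhlhe41 (13.6 and 14.4), Hes3 (11.6 and 14.1, a region shared with Gpr153) and the Notch target Hes1 (7.49 and 8.91). Of 22 bHLH zipper genes 14 (63.6%) had one, led by Tfap4 (11.4 and 11.1), the sterol regulator gene Srebf2 (9.68 and 12.4) and Mga, whose product binds MAX and represses germ cell genes in other tissues (10.1 and 10.7). The lists were drawn up with earlier results of these data known, and their shares were not tested.

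Genes that act upstream of Id genes or on Id and E proteins were described last. Of 17 BMP signalling genes 8 (47.1%) had a region, led by Smad5 (11.1 and 9.13), the receptor gene Acvr2b (8.93 and 9.73) and Smad4 (7.01 and 12.1). Smad5 and Smad4 encode transducers of BMP signals. Of 13 genes of E protein cofactors and Id turnover 6 (46.2%) had one, led by the corepressor gene Cbfa2t2 (13.6 and 12.6), by Usp1, whose product removes ubiquitin from Id proteins (7.63 and 12.1), and by the LIM adaptor gene Lmo4 (7.86 and 8.06). With a −log10 q minimum of 10, where 6.78% of all protein-coding genes had a region, the counts fell to 2 partners, 1 germ cell gene, 3 repressors, 6 zipper genes, 5 BMP genes and 3 cofactor genes. With a minimum of 5, where the background was 11.8%, the partners had 4, the germ cell genes 1 and the zipper genes 9. Under a reciprocal overlap of 50% (15.3% of all genes) the partners had 6 and the germ cell genes 1. In each of these recounts the share of the 45 partners lay below that of all genes.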

How the data were processed

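The build was mm10 and the tools were MACS2 2.2.6 for peaks, Bowtie2 2.3.5 as aligner, and cutadapt 2.6, Picard, deepTools 3.5.0 and SAMtools 1.10, per the submitters' processing notes. For the settings, the threshold and the control of the peak call: not given in the sources used here. The authors deposited 1 peak list per library, with a summit offset, −log10 q and −log10 p values, a fold enrichment (a ratio to the background the caller estimated) and a score, which is the deposited −log10 q times 10 without decimals. Read depth is unknown.

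Gene positions were those of RefSeq for GRCm38.p6, matched by symbol, without 340 entries on scaffold coordinates (before 3 Mb on autosomes and X). Percentiles of fold were taken within each list, and a region's fold is that of its strongest peak in each replicate. Members, lists and rules were chosen with earlier results of these data known. Named were all members, up to 3 genes per related list with a region at an end and the highest mean percentile, and the 3 regions closest to the strongest member region. Genes next to members' peaks were named after their values were seen. Region building was tested on simulated data with a single peak of each replicate per region, so the joining of several peaks was not covered. Python 3.11.15 was used with pandas 2.3.3, matplotlib 3.10.9, numpy 2.4.6 and scipy 1.17.1. Binomial intervals cover counting error only and treat peaks as independent, although several lie side by side at the same gene.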

Additional observations from a re-analysis of the deposited data

How the results depend on the processing

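The number of members with a shared region in the body or within 50 kb (6) was 5 at a −log10 q of at least 5, 4 at 10, 5 with a flank of 20 kb, 7 with 100 kb and 5 when each region counted only for its nearest gene. Among all protein-coding genes the share moved too, to 34.6% for the 20 kb flank, 57.2% for the 100 kb flank and 21.5% under the nearest-gene rule. The 7 members reached with 100 kb thus came with a higher background. Using replicate 1 peaks alone the member count was 7 (51.4% of all genes), and using replicate 2 peaks alone it was 6 (56.7%). The number with a region within 1 kb of an end (3) was 4 with replicate 1 alone (23.7%), with replicate 2 alone (27.8%) and with a 2 kb window (22.4%). It stayed 3 at both stricter q-values and with a 500 bp window (19.8%). At starts of transcription only, 3 of the 5 members with a listed start had a region, against 21.7% of 17492 genes. Neither count of members moved under a reciprocal overlap of 50% (36.6% of all genes within 50 kb, 15.3% at ends). Nor did they move with knockout regions kept (45.9% and 21.0%). The same held when wild-type peaks had to reach the lowest −log10 p among knockout peaks (41.7% and 18.4%), an alternative added after seeing the data. The background moved more, from 45.8% to 29.6% and 18% of genes within 50 kb and from 21.0% to 11.8% and 6.78% at ends for −log10 q of at least 5 and 10, as regions fell from 5325 to 2792 and 1588; a single replicate gave 8077 or 10217. At a −log10 q of at least 5 fewer peaks were counted. The share of replicate 2 peaks near members found in replicate 1 rose there from 56.5% to 88.9% (8 of 9). That of replicate 1 peaks found in replicate 2 went from 68.2% to 72.7% (8 of 11). Under a reciprocal overlap of 50% the replicate 2 share fell to 43.5% (10 of 23) and the replicate 1 share to 45.5% (10 of 22). Shares of the whole lists at these settings are not given here, so these changes cannot be called particular to the members. No paired analysis was possible because no test between groups was made and the knockout has 1 library. Of 63 recounts of regions per member, 19 moved by over 1.5 times, as did 12 of 54 list recounts. Depth is unknown, so a missing peak does not show an unbound site.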
